A study of Penicillium oxalicum with 6 samples.

Results

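A set of 7 beta-glucosidase genes of the filamentous fungus Penicillium oxalicum was followed by RNA sequencing in 2 strains grown on cellulose. The genes were chosen by identifier, with earlier results of these data known: POX03062, POX06835, POX03641, POX06079, POX00968, POX07963 and POX08882. All 7 are among the 9284 genes that the tables list in at least 1 library, and each was listed in all 6 libraries. The deposited tables pair no identifier with a gene name, so the enzyme class of each gene was recalled from earlier literature on the species and could not be checked here.

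Ku70, the comparison strain, is labelled as a mutant of Ku70, a protein of DNA end joining whose loss is commonly used to ease gene targeting in fungi. MuPOX00158 is labelled as a mutant of POX00158, which the series title calls a deletion. POX00158 is a gene described as a phosphokinase, and the stated aim was to learn its effect on cellulase and xylanase transcripts. The labels do not say whether MuPOX00158 also carries the Ku70 mutation, how many clones were used, or whether replicate libraries stem from independent cultures. The p-values therefore reflect only the variation among libraries, part or all of which may be technical. Hyphae of both strains were shaken at 28 °C and 180 rpm for 24 h in medium with Avicel, a microcrystalline cellulose (1% per the sample titles), after spores had been raised on plates for 6 days. Markers that would check the label of mycelium could not be picked, because the tables hold no gene names.

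Cellulose is broken down in steps. Cellobiohydrolases and endoglucanases cut the polymer into cellobiose and other short sugars, and beta-glucosidases split these into glucose. In filamentous fungi these enzymes mostly fall into glycoside hydrolase families 1 and 3. Family 3 proteins are the larger of the pair and are often secreted, while many family 1 proteins are found inside the cell. Fungi carry several such genes, and cellobiose and its relatives also act as signals on cellulase genes.

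The libraries held 2983815 to 3259601 expected counts, the reads that a probabilistic assignment gives to each gene, over 8677 to 8750 genes. POX00158 had 1067, 569 and 763 reads in Ku70 replicates 1, 2 and 3, and 4, 8 and 9 reads in MuPOX00158 replicates 1, 2 and 3. The level of the deleted gene thus matched the label in all 6 libraries. The expected counts of the 7 beta-glucosidase genes were whole numbers in every library (within 0.001). This does not show how reads matching similar genes were treated.

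The 7 genes spanned a wide range of levels in Ku70, and POX06079 led in every library. Levels are given as FPKM, that is reads per length of gene and per size of library, so that different genes can be set side by side. POX06079 was at 2354, 2372 and 2982 FPKM in Ku70 replicates 1, 2 and 3. Among all listed genes its mean level ranked 38th in Ku70. POX03641 came next with 506, 499 and 688 FPKM, followed by POX03062 with 213, 156 and 210 FPKM. POX06835 stood at 169, 90.1 and 122 FPKM, and POX00968 at 59.0, 36.3 and 31.3 FPKM. The weakest were POX08882 with 11.1, 7.49 and 7.47 FPKM and POX07963 with 8.80, 3.73 and 7.86 FPKM. In this order the ranges of neighbouring genes overlapped between POX03062 and POX06835 and between POX08882 and POX07963, and nowhere else. POX03062 was nevertheless above POX06835 in 3 of 3 Ku70 libraries, while POX08882 was above POX07963 in 2 of 3.

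In MuPOX00158 the first 4 places were unchanged and the last 3 were rearranged. POX06079 again led, with 1212, 1651 and 1300 FPKM in replicates 1, 2 and 3, but its rank among all listed genes was 105th. POX03641 followed with 370, 387 and 375 FPKM, POX03062 with 167, 130 and 143 FPKM and POX06835 with 58.9, 55.4 and 55.7 FPKM. POX07963 moved from the last to the fifth place, at 19.0, 19.6 and 39.2 FPKM. POX08882 held the sixth place in every MuPOX00158 library, with 11.2, 7.38 and 11.7 FPKM. POX00968 moved from the fifth place to the last, at 6.79, 4.68 and 3.84 FPKM. In this strain the ranges of no neighbouring genes overlapped.

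**Figure D1:**
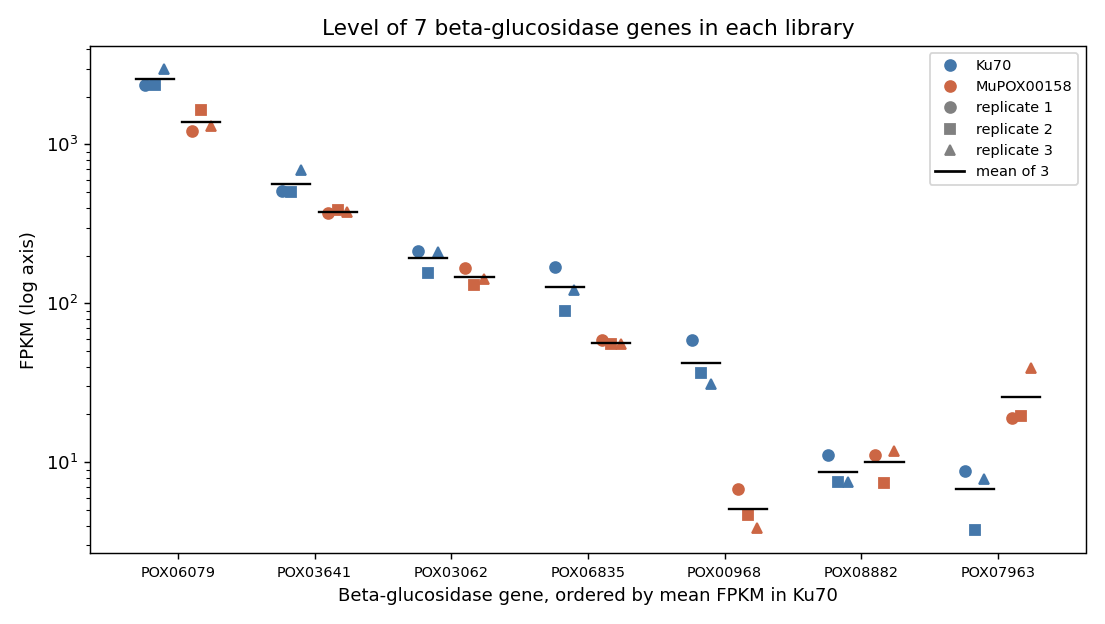
FPKM (log axis) of the 7 beta-glucosidase genes in each library, with Ku70 in blue, MuPOX00158 in orange, a symbol shape per replicate and a line at the mean of 3 libraries. The genes run from left to right by their Ku70 level; POX00968 drops below POX08882 in MuPOX00158 and POX07963 rises above it.

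Of the 7 genes, 4 fell in MuPOX00158, 1 rose and 2 did not pass the test (edgeR quasi-likelihood test, Benjamini-Hochberg adjusted p below 0.05 over 7757 genes tested). All 7 were among the genes tested. Over all tested genes 18.6% fell and 18.6% rose, so that 37.2% changed. The median log2 fold change of the 7 genes, MuPOX00158 over Ku70, was -0.65, whereas that of all tested genes was 0.00. The set was chosen with earlier results of these data known, so its counts and median only describe it. Changes are given below on CPM, counts per 1000000 reads with library sizes scaled by TMM, and with the standard error (SE) and 95% interval of the log2 fold change. The CPM ranges of the strains did not overlap for 6 of the 7 genes, which is also true of 51.7% of all tested genes.

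**Figure D2:**
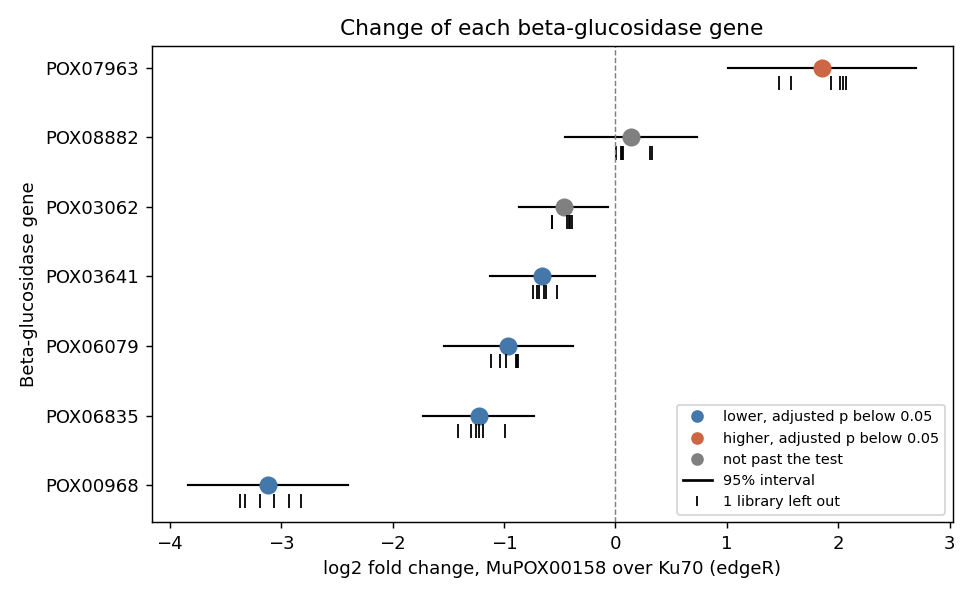
The log2 fold change of each gene, MuPOX00158 over Ku70, as a point with its 95% interval, and below it as ticks the values with 1 library left out. The points run from -3.12 for POX00968 to 1.86 for POX07963, and every interval but that of POX08882 leaves out 0. POX03062, shown in grey, has an unadjusted interval just below 0 and did not pass the adjusted test.

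POX06079, the dominant gene, fell 1.95-fold. It was at 3246, 3594 and 4107 CPM in Ku70 and at 1646, 2274 and 1702 CPM in MuPOX00158. All Ku70 libraries lay above all MuPOX00158 libraries, and MuPOX00158 replicate 2 was the highest of its strain. The means were 3649 ± 433 and 1874 ± 347 CPM (SD, n = 3 each), a log2 fold change of -0.96 (SE 0.25, 95% interval -1.54 to -0.38, edgeR adjusted p = 0.0188). The call was lost without MuPOX00158 replicate 1 (adjusted p = 0.0949), without MuPOX00158 replicate 3 (0.0899) and without Ku70 replicate 3 (0.0565), with log2 fold changes of -0.87, -0.89 and -0.88. POX06079 alone made up 78.7% of the difference in mean summed FPKM of the 7 genes between strains. Its mean share of the sum in Ku70 was 73.2%, about what an equal proportional fall of all 7 genes would give it.

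POX03641, the second gene in both strains, fell by 0.65 on the log2 scale. It had 1240, 1346 and 1690 CPM in Ku70 and 892, 949 and 875 CPM in MuPOX00158. The MuPOX00158 libraries were close to each other, and Ku70 replicate 3 stood highest. The adjusted p was 0.0382 (edgeR, SE 0.21, 95% interval -1.13 to -0.18). This call depended most on the setting, while the log2 fold change ran from -0.74 to -0.53 over the alternatives. It was lost with replicate letters as a block (edgeR adjusted p = 0.0807), when libraries were not rescaled (0.0584), and without MuPOX00158 replicate 1 (0.137), 2 (0.0675) or 3 (0.143) or Ku70 replicate 3 (0.113).

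POX03062 did not pass the test. It was at 297, 239 and 292 CPM in Ku70 and at 230, 181 and 190 CPM in MuPOX00158. On CPM the lowest Ku70 library lay just above the highest MuPOX00158 library, whereas on the deposited FPKM the strains overlapped. This gave a log2 fold change of -0.46 (SE 0.17, 95% interval -0.86 to -0.07, edgeR adjusted p = 0.0668). The interval is not adjusted for the number of genes tested, which is why it can leave out 0. Without Ku70 replicate 2, the lowest of its strain, the gene passed (log2 fold change -0.57, adjusted p = 0.0407).

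POX06835 fell 2.34-fold. It had 424, 249 and 307 CPM in Ku70 and 146, 139 and 133 CPM in MuPOX00158. Ku70 libraries ranged widely and MuPOX00158 libraries hardly at all: the coefficient of variation (CV, SD over mean) was 27.4% in Ku70 and 4.47% in MuPOX00158, where counting error alone gives about 3.16% and 4.75%. Its log2 fold change was -1.23 (SE 0.22, 95% interval -1.73 to -0.73, edgeR adjusted p = 0.00330). The call held in all 17 alternatives computed, the replicate block and each library left out included.

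POX00968 showed the largest change of the set and fell 8.67-fold. It had 464, 298 and 252 reads in Ku70 and 52, 39 and 30 reads in MuPOX00158, or 111 ± 36.1 and 12.8 ± 3.92 CPM (SD, n = 3 each). The lowest Ku70 library was several times above the highest MuPOX00158 library. Between strains the log2 fold change came to -3.12 (SE 0.31, 95% interval -3.84 to -2.40, edgeR adjusted p = 0.000192), and only 1.48% of the tested genes had a lower value. The call held in all 17 alternatives, with log2 fold changes from -3.37 to -2.80.

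POX07963 was the only member that passed the test upward, 3.62-fold. It had 70, 31 and 64 reads in Ku70 and 147, 165 and 310 reads in MuPOX00158, or 17.9 ± 6.42 and 65.0 ± 27.2 CPM (SD, n = 3 each). The lowest MuPOX00158 library was above the highest Ku70 library, and MuPOX00158 replicate 3 stood far above replicates 1 and 2. The rise in log2 terms was 1.86 (SE 0.36, 95% interval 1.02 to 2.70, edgeR adjusted p = 0.00551). It was 1.47 without MuPOX00158 replicate 3, and the call held there and in the other alternatives computed, 17 in all.

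POX08882 was a weak gene in both strains and did not pass the test. It had 61, 43 and 42 reads in Ku70 and 60, 43 and 64 reads in MuPOX00158. The ranges of the strains overlapped almost wholly. Its fitted log2 fold change was 0.14 (SE 0.26; adjusted p = 0.697 in edgeR), and its 95% interval, -0.46 to 0.73, leaves room for changes between 0.729-fold and 1.66-fold. At 42 to 64 reads counting error alone gives a CV of about 14.3% in Ku70, against 21.3% measured there.

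**Figure D3:**
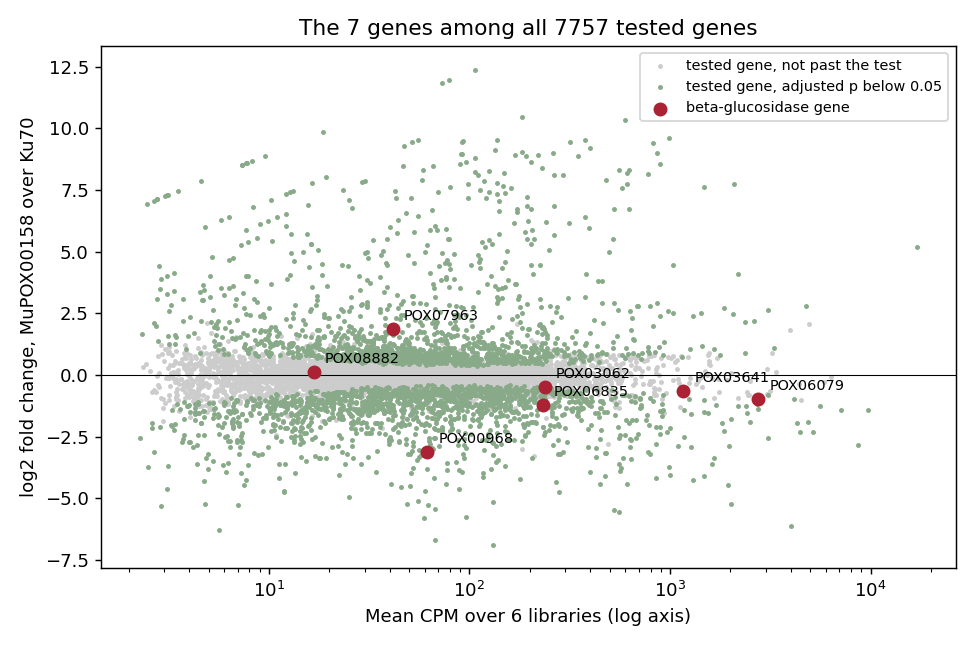
Mean CPM over 6 libraries (log axis) against the log2 fold change, MuPOX00158 over Ku70, for all 7757 tested genes, with genes past the test in green, the others in grey and the 7 beta-glucosidase genes in red. POX06079 and POX03641 lie among the most abundant genes with modest decreases, and POX00968 and POX07963 at middle levels with the largest changes of the set.

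The summed level of the 7 genes was lower in MuPOX00158. Their share of all FPKM in a library was 0.362, 0.334 and 0.432% in Ku70 and 0.177, 0.221 and 0.186% in MuPOX00158. The lowest Ku70 library was above the highest MuPOX00158 library. The difference was -0.95 on the log2 scale of the shares (exact permutation test, two-sided, p = 0.1, which is the smallest value that 3 libraries per strain can give). Other measures gave smaller differences: -0.88 for summed FPKM over the TMM factors, -0.80 for summed FPKM and -0.78 for the share of counts. POX06079 and POX03641 together held 89.2 ± 2.63% of the summed FPKM in Ku70, against 87.7 ± 2.42% in the other strain (SD, n = 3 each), and these values overlapped between strains.

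**Figure D4:**
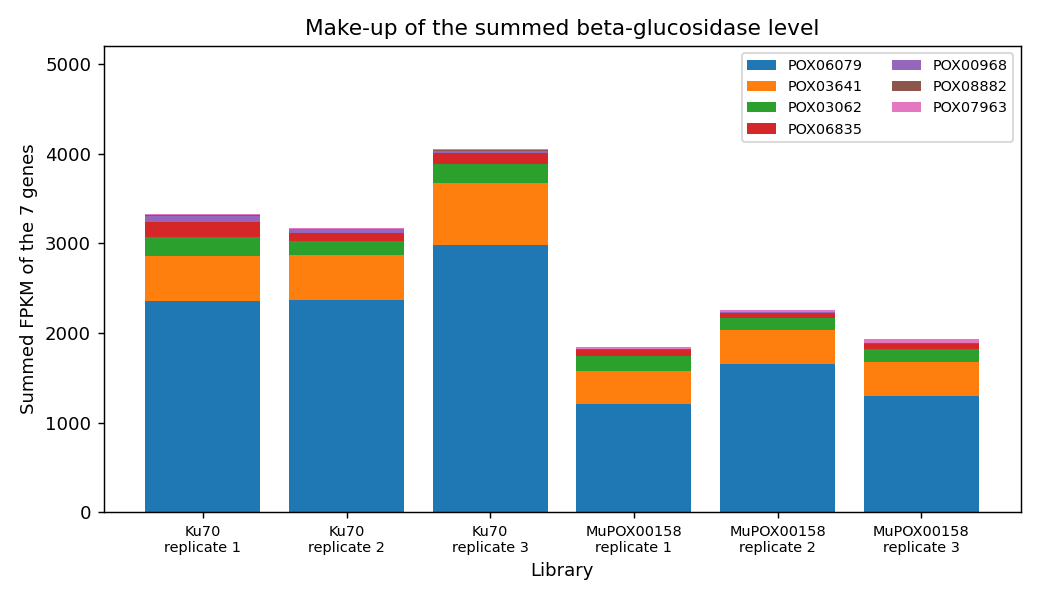
Summed FPKM of the 7 beta-glucosidase genes in each library, stacked by gene. The sums lie between 3165 and 4048 in Ku70 and between 1845 and 2255 in MuPOX00158, and POX06079 fills most of each bar in both strains.

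Within the set, POX06079 kept by far the largest share in every library of both strains. POX06079 held 70.9, 74.9 and 73.7% of the summed FPKM in Ku70 and 65.7, 73.2 and 67.4% in MuPOX00158, with overlap between strains. POX03641 held 16.0 ± 0.895% in Ku70, against 18.9 ± 1.52% in the other strain (SD, n = 3 each), with no overlap. The share of POX03062 was 5.51 ± 0.792% and 7.42 ± 1.65%, and that of POX06835 was 3.65 ± 1.25% and 2.85 ± 0.371%, both overlapping. POX00968 went from 1.23 ± 0.508% to 0.258 ± 0.0952%, and POX07963 from 0.192 ± 0.0736% to 1.31 ± 0.632%, neither with overlap. The share of POX08882 was 0.252 ± 0.0758% in Ku70 and 0.514 ± 0.162% in MuPOX00158, and its ranges overlapped. The sum was lower in MuPOX00158, so a share can be larger there without a rise of its gene. POX03641 held a larger share though its CPM fell, and POX08882 did not pass the edgeR test. The permutation p was 0.1 for POX03641, POX00968 and POX07963, 0.2 for POX06079, POX03062 and POX08882 and 0.5 for POX06835 (two-sided exact tests). Adjusted over the 7 genes none was below 0.233, and none could have passed 0.05 with 3 libraries per strain.

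POX00968 and POX07963 changed places. The pair was set side by side after their values had been seen, and the ratio is given as a description. The FPKM ratio of POX07963 to POX00968 was 0.149, 0.103 and 0.251 in Ku70 replicates 1, 2 and 3 and 2.79, 4.18 and 10.2 in MuPOX00158 replicates 1, 2 and 3. POX00968 was the stronger gene in every Ku70 library and POX07963 in every MuPOX00158 library.

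Genes of like length differed in their changes. The effective length, which the deposited count and FPKM imply together, was 1382 bases for POX06079 and 1397 for POX03062. It was 1790 bases for POX08882 and 2460 to 2590 for POX03641, POX06835, POX00968 and POX07963. The shortest genes thus include the most abundant member of the set, and the 4 longest include both the deepest fall (POX00968, 2560 bases) and the rise (POX07963, 2590 bases). The files hold no sequence, so no family was assigned from these lengths.

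The decrease of the beta-glucosidase genes was smaller than that of the cellulase genes, in median and in sum. The 10 cellulase genes were recalled by identifier in the same way, also with earlier results of these data known. Of them 9 passed the test downward and none upward, with a median log2 fold change of -1.90. The summed FPKM of the 7 beta-glucosidase genes was 0.100, 0.119 and 0.111 of the cellulase sum in Ku70 and 0.306, 0.219 and 0.241 of it in MuPOX00158. All MuPOX00158 libraries were above all Ku70 libraries, and the mean ratio was 0.110 ± 0.00917 in Ku70 and 0.255 ± 0.0452 in MuPOX00158 (n = 3 each, SD). This is a difference of 1.21 on the log2 scale (p = 0.1 in the two-sided exact permutation test, the smallest possible). Against the summed FPKM of the cellobiohydrolase genes POX04786 and POX05587 the difference was 1.31. These genes fell unequally, with log2 fold changes of -2.85 (SE 0.38) for POX04786 and -1.24 (SE 0.32) for POX05587. The ratio to each of them alone was not tested.

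The cellulase sum itself differed by -2.01 on the log2 scale of summed FPKM, where the sum of the 7 genes differed by -0.80. The fall of the cellulase sum lifts the ratio of every gene to it. Set against this sum gene by gene, 6 members were higher in MuPOX00158 without overlap between strains, as were 89.7% of all tested genes, while 1.71% were lower without overlap. The count is thus near the background and is not particular to these genes. The log2 difference of this ratio was 1.12 for POX06079, 1.44 for POX03641, 1.62 for POX03062, 0.89 for POX06835, 2.22 for POX08882 and 3.95 for POX07963. Each had a two-sided exact permutation p of 0.1, or 0.117 adjusted over the 7 genes, and so could not pass 0.05 in this design. POX00968 had a difference of -1.03 and overlapping ranges (permutation p = 0.2, exact). The ratio shows unequal change of both sets and not that either held its level.

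**Figure D5:**
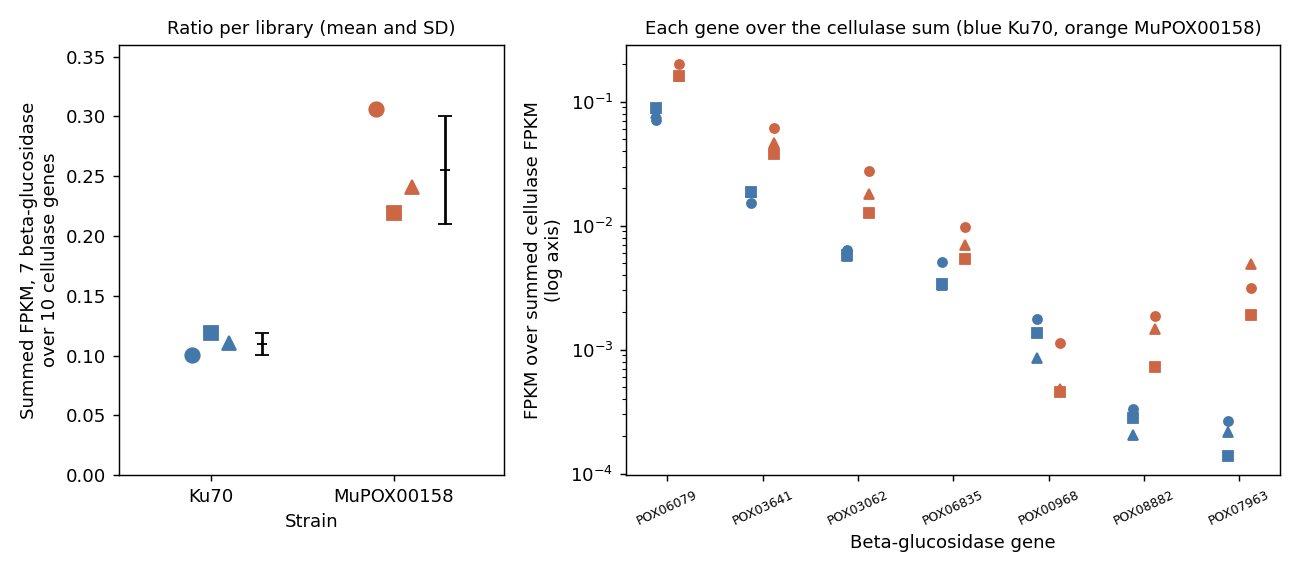
Left, summed FPKM of the 7 beta-glucosidase genes over that of 10 cellulase genes in each library, with mean and SD of 3 libraries; right, the same ratio for each gene on a log axis. Circles, squares and triangles are replicates 1, 2 and 3; 6 members have their MuPOX00158 values above their Ku70 values, as do 89.7% of all tested genes, and POX00968 does not.

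Genes with a profile like that of a member were sought by distance, the root mean square difference over the 6 libraries of log2 CPM centred on each gene's mean. The lists of other enzymes and regulators held 22 tested genes, also recalled by identifier. They comprise the 10 cellulase genes, 7 xylanase genes that all fell, 3 amylase genes of which none fell and 1 rose, and 2 regulators that did not pass. Among them the cellulase gene POX06983 was nearest to both POX06079 (distance 0.21) and POX03641 (0.22). POX06835 was nearest to the xylanase gene POX05916 (0.25), POX00968 to the endoglucanase gene POX05570 (0.51) and POX07963 to the amylase gene POX09352 (0.50). The regulator of sexual and asexual development POX08415 was nearest to POX03062 (0.15) and POX08882 (0.31). In each case many unlisted genes lay nearer, from 88 for POX00968 to 1795 for POX08882.

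The log2 fold changes of these listed genes were -0.74 for POX06983, -1.45 for POX05916, -2.51 for POX05570 and 1.57 for POX09352, all past the test, and -0.47 for POX08415 (adjusted p = 0.105). Over all tested genes the nearest to POX06835 was POX04055 (distance 0.07, log2 fold change -1.16). The nearest to POX00968 was POX08946 (0.24, log2 fold change -3.06), and no gene lay within 0.20 of it. The nearest to POX07963 was POX06526 (0.08, log2 fold change 1.78), the only gene within 0.20. These 3 identifiers have no name in the sources used here. By contrast 464 genes lay within 0.20 of POX03062 and 121 within 0.20 of POX06079, whose changes were smaller. The distance includes the difference between strains, so a gene near a member also has a like log2 fold change. Among the members themselves the closest pair was POX06079 and POX03641 (0.204), and POX03062 and POX03641 were almost as close (0.215). Yet 135 tested genes lay nearer to POX06079 than POX03641 did, and 282 lay nearer to POX03641 than POX06079 did.

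The members' neighbours by identifier did not move with them as a rule. Of the 58 tested genes whose identifier number lies within 5 of a member, 12 fell (20.7%) and 9 rose (15.5%), close to the 18.6% of all tested genes in each direction. None of the 10 tested neighbours of POX06079 and none of the 7 of POX06835 passed the edgeR test in either direction. POX00968 had 8 tested neighbours, of which 1 fell and 2 rose. Around POX07963 3 of 9 fell and 1 rose, and around POX03641 1 of 6 fell and 3 rose. POX03062, which did not pass itself, had 5 of 8 neighbours that fell and 1 that rose. For POX08882 the numbers were 2 and 2 of 10. Identifier numbers stand here for order only, since the files give no positions.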

How the data were processed

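The authors deposited 1 table per library with an expected count and an FPKM value per gene, per the file headers. The submitters' processing notes list DESeq2, BWA 0.7.10-r789, RSEM 1.2.12 and Bowtie2 2.1.0 without saying what each did. Build, annotation and strand setting: not given in the sources used here. No table holds a 0, so a gene missing from a library was taken as 0. None of the identifiers matched the RefSeq table of this species, so no sequence or position is shown.

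Groups come from the strain label and replicate numbers from the order of deposition. Rounded expected counts went into edgeR 4.0.16 under R 4.3.3 (filterByExpr with a minimum count of 10 and total of 15, TMM, quasi-likelihood, Benjamini-Hochberg over 7757 genes). The SE is the log2 fold change over the square root of F. Distances used a prior count of 2. The fit was tested on simulated data. Values with 1 number per library went into exact permutation tests (two-sided, 20 arrangements). Alternatives used DESeq2 1.42.0 and limma 3.58.1 among others. Deviations of same-letter libraries (F, S, T in the titles) correlated at 0.150, 0.219 and 0.159 across genes. Those of libraries with different letters correlated at -0.177 to 0.0336. An edgeR fit with the letter as a block was therefore run. The permutation tests took no account of the letters, and their smallest p of 0.1 holds for libraries taken as unpaired. The named genes are the 7 members, POX00158, and the nearest listed and unlisted genes. Members and lists were chosen with earlier results of these data known.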

Additional observations from a re-analysis of the deposited data

How the results depend on the processing

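Across 111 refits of single members, 101 kept their side of the threshold, 9 lost a call (6 of POX03641 and 3 of POX06079) and 1 gained one (POX03062), and no called change turned its direction. The number of members that changed, 5, was 3 at an adjusted p below 0.01 (2 lower), 4 with the replicate block (3 lower, without POX03641), 4 with plain library sizes, and 5 with other scaling factors, no filter, the stricter filter, DESeq2 and limma on FPKM. With 1 library left out it ran from 3 to 6, and the number lower, 4, from 2 to 5. The 1 higher member passed in every alternative. POX08882 could not be tested under the stricter filter. The difference in summed level, -0.95, ran from -1.04 to -0.84 with 1 library left out and was -0.78 on counts; the ratio to the cellulase sum, 1.21, ran from 1.07 to 1.31. The differences in share, none of which passed a test, moved more with 1 library left out: for POX06835 from -0.80 percentage points to -0.08 without Ku70 replicate 1, and to -1.20 without Ku70 replicate 2. That of POX03062, 1.91, was 1.09 without MuPOX00158 replicate 1, and that of POX06079, -4.40, was -2.86 without that library and -6.62 without MuPOX00158 replicate 2. On counts, without length scaling, the share of POX00968 differed by -1.55 and that of POX07963 by 1.75 percentage points, against -0.97 and 1.12 on FPKM. The cause of these shifts was not tested. POX08882 and POX07963 in Ku70 and POX00968 in MuPOX00158 rest on 30 to 70 reads per library.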

Other observations

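In the 3 Ku70 libraries the ratio of POX06835 to POX00158, the gene deleted in the other strain per the series title, varied little. This was looked for after the values were seen, and it rests on 3 libraries. POX06835 had 1.23, 1.28 and 1.27 times the CPM of POX00158 in Ku70 replicates 1, 2 and 3, while POX00158 itself ranged from 194 to 346 CPM. The highest of these ratios was 1.04 times the lowest, and only 16 other tested genes, 0.206% of them, had a smaller spread. The same quotient of highest over lowest ratio was 1.37 to 1.97 for the other 6 beta-glucosidase genes, and the largest was that of POX06079. In Ku70 the counting error of these 6 genes ran from a CV of 0.947% for POX06079 to 14.3% for POX08882. Their quotients therefore hold unequal amounts of counting error, as do those of the other tested genes. Counting error alone gives a CV of about 3.16% for POX06835 and 3.54% for POX00158 in Ku70. A spread of 1.04 is within such error, so these 3 libraries cannot show a fixed proportion. No test was made.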
